A study of Mus musculus with 24 samples.

Results

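The Kruppel-like factors described here are 10 zinc-finger transcription factor genes, Klf2, Klf3, Klf4, Klf5, Klf6, Klf10, Klf11, Klf13, Klf15 and Klf16. They were picked by name from the platform's probe-to-gene table and make up 10 of the 22180 genes tested. The choice was made with earlier results of these data known, so counts of members called are a description. Primary mouse hepatocytes from male C57Bl6J mice were infected with adenovirus that carried a hairpin against FOXA2 (shFOXA2) or against lacZ (shlacZ, the control hairpin). They were then treated for 4 h with 100 nM glucagon or 1 nM insulin, and with 2 µM GW4064, an agonist of the bile acid receptor FXR, or its solvent DMSO. This gave 8 groups: shFOXA2 with glucagon and GW4064, shFOXA2 with glucagon and DMSO, shFOXA2 with insulin and GW4064, shFOXA2 with insulin and DMSO, and the same 4 with shlacZ. Each group had 3 arrays, 1 from each of 3 experiments, and each experiment used hepatocytes pooled from 3 mice.

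All groups shared a medium with 100 nM dexamethasone, a synthetic glucocorticoid, and all carried adenovirus. No group was left without hormone, so a gene higher under glucagon cannot be told apart from a gene lower under insulin. FOXA2 was targeted with a single hairpin. RNA was hybridised to Affymetrix mouse gene arrays, and values are the submitters' log2 signal, on which a difference of 1 is a doubling. The arrays' medians lay between 3.21 and 3.28, and genes with a mean under 4 are called near the floor below. Foxa2 itself was lower with shFOXA2 in 12 of 12 matched pairs, with a mean log2 difference of -0.43 and with -0.51, -0.66 and -0.12 in experiments 1, 2 and 3. It also differed between hormones, higher under glucagon in 12 of 12 pairs by a mean of 1.19. With shFOXA2 and glucagon it averaged 6.90 (GW4064) and 7.02 (DMSO), above the 6.14 and 6.27 with shlacZ and insulin. The hairpin thus lowered Foxa2 by less than the hormones moved it. Hepatocyte markers averaged between 9.01 and 10.19 per array. Near the floor were 7 of 7 lymphocyte, 7 of 9 macrophage, 6 of 8 stellate, 3 of 5 cholangiocyte and 5 of 10 endothelial markers. The highest means in the last 4 lists were those of Cd68 (9.12), Dcn (6.17), Sox9 (7.18) and Cdh5 (6.94). On the arrays, fewer cells of a type and less RNA per cell cannot be told apart.

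Kruppel-like factors bind GC-rich and CACCC sequences in promoters through a conserved set of zinc fingers, and differ in their N-terminal parts, which recruit either coactivators or corepressors. Klf5 and Klf6 are mostly activators: Klf5 is known from proliferating epithelia, and Klf6 is quickly induced by injury and growth signals. Klf4 is an epithelial and pluripotency factor, and Klf2 is a factor of endothelium and quiescent lymphocytes. Klf3 represses through the corepressor CtBP. Klf10, Klf11, Klf13 and Klf16 bind the Sin3a corepressor, and the first pair were found as genes induced by TGF-beta. In mouse liver Klf15 is induced by fasting and by glucocorticoids and drives the breakdown of amino acids for gluconeogenesis, while Klf10 has been tied to the circadian control of glucose and lipid genes.

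The promoters of the members that the hormone results turn on are shown first, because glucagon acts through cAMP, and CREB, the factor activated by that second messenger, binds the cAMP response element TGACGTCA or its shorter core TGACG. RefSeq windows of 300 bases on GRCm38.p6, 250 before and 50 after the start site, were at hand for 7 of the 10 members. Klf5, Klf10 and Klf16 are named only. Windows are written 5′ to 3′ on the gene's strand, and capitals mark the core TGACG on either strand and the E-box CACGTG, the site of clock and MYC-type factors. The 4 members shown are those with a window that passed the hormone test described below, namely Klf15 at chr6:90462326-90462625, Klf11 at chr12:24651121-24651420, Klf3 at chr5:64803271-64803570 and Klf6 at chr13:5861239-5861538, all on the plus strand.
Klf15: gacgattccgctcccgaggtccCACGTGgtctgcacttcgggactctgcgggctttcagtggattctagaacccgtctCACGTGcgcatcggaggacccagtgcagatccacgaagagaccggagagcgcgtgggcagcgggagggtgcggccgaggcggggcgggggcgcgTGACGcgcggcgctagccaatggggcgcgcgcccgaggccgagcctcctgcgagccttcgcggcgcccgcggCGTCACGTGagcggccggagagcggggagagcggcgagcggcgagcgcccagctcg
Klf11: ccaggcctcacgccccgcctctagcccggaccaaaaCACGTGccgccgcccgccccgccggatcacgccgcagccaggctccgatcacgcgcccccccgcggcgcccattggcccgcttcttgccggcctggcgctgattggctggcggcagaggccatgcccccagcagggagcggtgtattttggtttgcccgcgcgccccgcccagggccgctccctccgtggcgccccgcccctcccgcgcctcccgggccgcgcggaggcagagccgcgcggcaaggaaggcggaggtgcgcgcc
Klf3: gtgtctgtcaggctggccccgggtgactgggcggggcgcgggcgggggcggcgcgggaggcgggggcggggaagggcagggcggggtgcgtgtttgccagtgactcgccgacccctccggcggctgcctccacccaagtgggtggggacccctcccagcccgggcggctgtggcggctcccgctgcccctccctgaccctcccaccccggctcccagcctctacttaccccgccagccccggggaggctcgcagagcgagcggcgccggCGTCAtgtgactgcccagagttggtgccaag
Klf6: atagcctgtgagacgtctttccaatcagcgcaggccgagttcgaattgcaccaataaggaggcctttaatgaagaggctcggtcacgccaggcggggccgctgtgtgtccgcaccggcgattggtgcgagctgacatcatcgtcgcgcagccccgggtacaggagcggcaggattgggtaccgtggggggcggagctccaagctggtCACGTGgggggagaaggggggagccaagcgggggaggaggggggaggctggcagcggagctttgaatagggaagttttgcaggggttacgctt
The Klf15 window held 2 cores, one starting at -78 and one on the other strand at -6, and 3 E-boxes at -228, -172 and -3, the last of which overlaps the second core. The Klf11 window held 1 E-box at -214 and no core, the Klf6 window 1 E-box at -43 and no core, and the Klf3 window 1 core on the other strand at 19 bases after the start and no E-box. None of the 7 windows held the full element TGACGTCA, which 1.79% of all 32851 mouse windows of this length held. The core stood in 5 of the 7 members' windows, against 20.8% of all windows, and the E-box in 4 of 7, against 7.15%. The GC box GGGCGG, counted on both strands like the others, stood in 7 of 7, against 35.7%, and CACCC in 4 of 7, against 57.5%. The windows shown had GC contents of 73.3% for Klf15, 77.7% for Klf11, 76.7% for Klf3 and 63.0% for Klf6, against a median of 52.7% over all windows. The part of GC content in these shares was not tested. Klf2, Klf4 and Klf13, which did not pass the hormone test, each held 1 core too. A match describes these letters and does not show binding.

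The members lie on 10 different chromosomes, each measured by 1 probe set of its own. On GRCm38.p6, Klf15 spans chr6:90461043-90491803, Klf5 chr14:99298691-99313412, Klf6 chr13:5861489-5870393, Klf10 chr15:38291464-38300711 and Klf16 chr10:80567121-80577296. Klf3 spans chr5:64803521-64832901, Klf11 chr12:24651371-24662782, Klf13 chr7:63886351-63938915, Klf4 chr4:55527137-55532475 and Klf2 chr8:72319062-72321654. All are protein-coding in RefSeq. The table's start site for Klf15 lies inside the span of the gene, so the window shown is that of 1 start among those annotated.

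**Figure D1:**
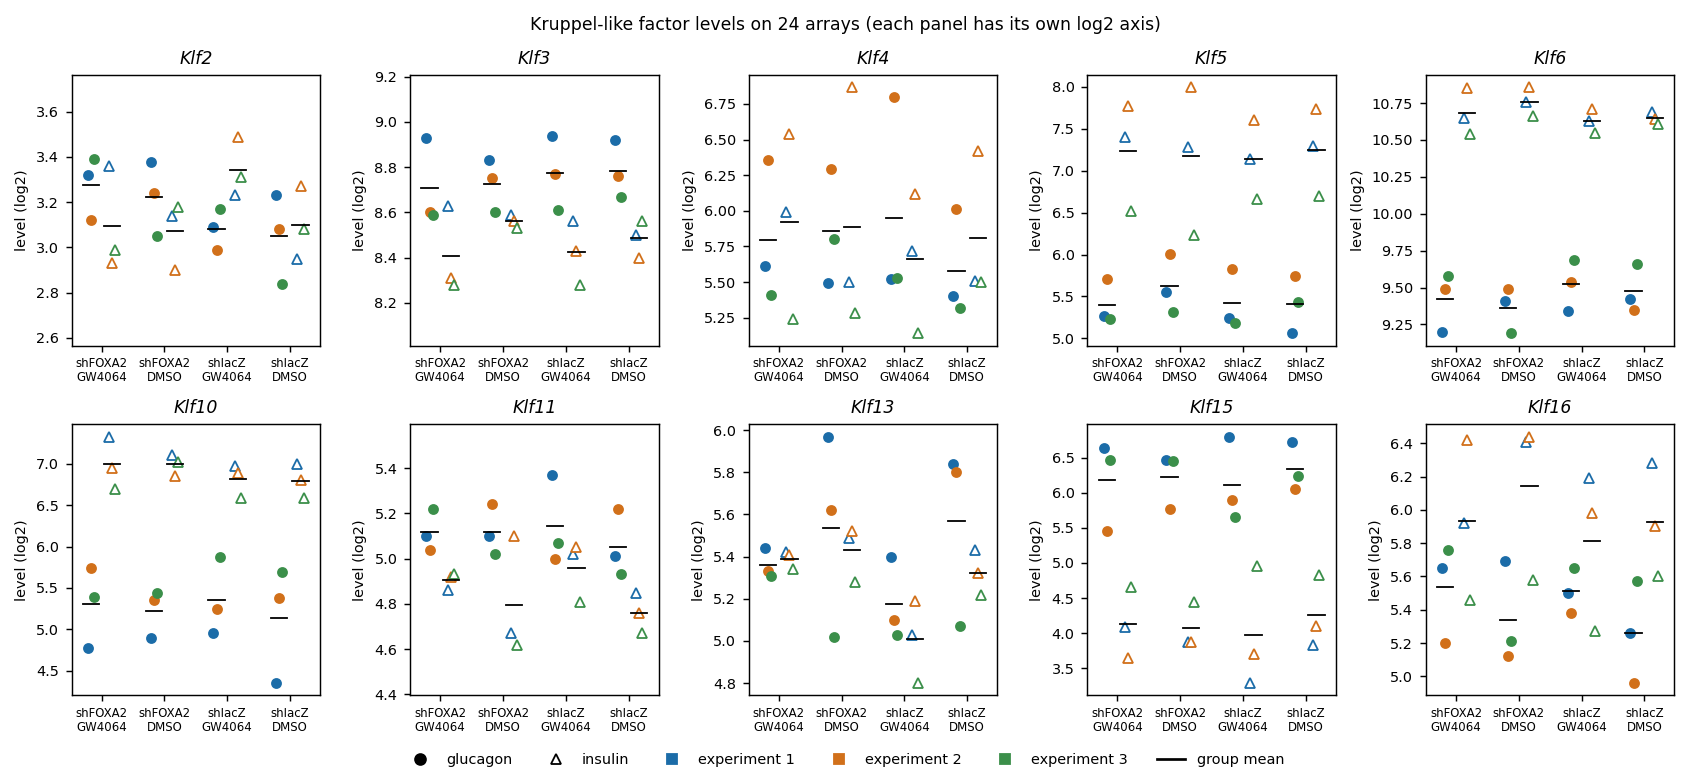
Log2 signal of each of the 10 members on all 24 arrays, 1 panel and 1 log2 axis per member, with the 4 combinations of hairpin and drug along the horizontal axis. Filled circles are glucagon arrays, open triangles insulin arrays, colours the 3 experiments and bars the group means of 3 arrays. The glucagon and insulin arrays of Klf5, Klf6, Klf10 and Klf15 do not overlap in any panel position, and the experiment 2 arrays of Klf4 lie above its others.

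The comparison of glucagon with insulin asks how the family differs between a fasting and a fed hormone. Klf15 was 4.31-fold higher under glucagon, and Klf5, Klf10 and Klf6 were at 0.301, 0.32 and 0.425 of their insulin level, each averaged over the 4 combinations of hairpin and drug with 12 arrays per hormone. Klf16 was lower, at 0.686 of its insulin level, and Klf3 and Klf11 were higher, by 1.21-fold and 1.19-fold. Klf2, Klf4 and Klf13 did not pass the test. By limma with Benjamini-Hochberg adjustment over all 22180 genes at 0.05, 7 of 10 members were called, 3 higher and 4 lower under glucagon. Of all genes tested 16.2% were called, 7.38% higher and 8.85% lower, and of the 9041 genes with a mean of at least 4 the share was 34.4%. The members were chosen with earlier results of these data known, so their share was not tested against these. With experiment number in the fit as a block the same count of 7 was called, where 24.6% of all genes were. The 12 arrays per hormone come from 3 experiments, 4 from each. Both fits count these 4 as separate replicates of the hormone difference, so p-values do not measure how far it varied between experiments. The members' median difference was -0.01 and that of all genes 0.01.

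**Figure D2:**
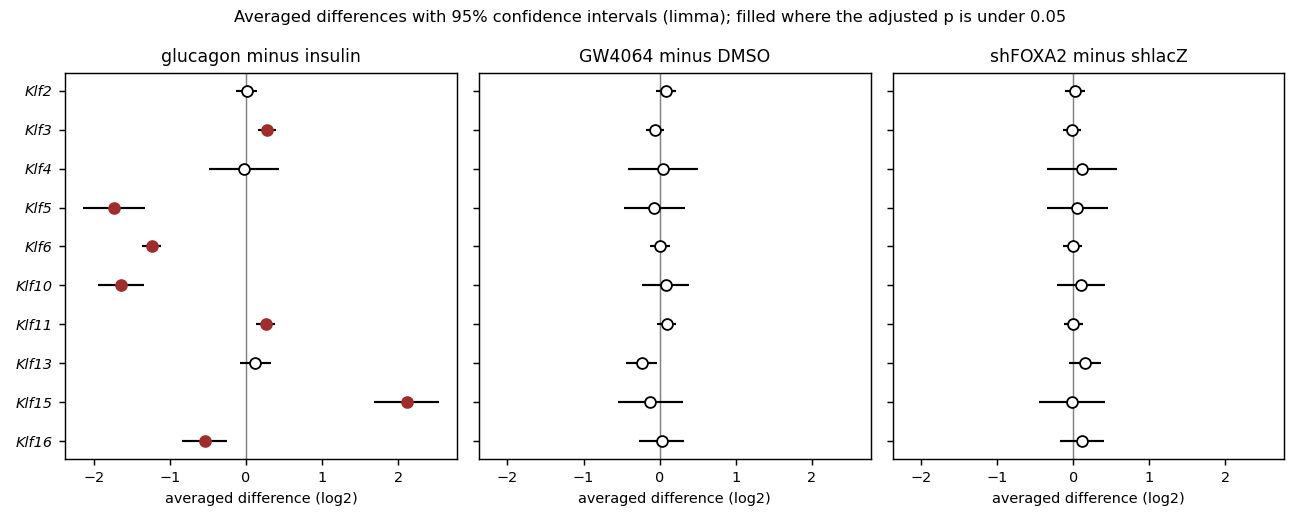
Log2 differences of the 10 members in the 3 averaged comparisons (glucagon minus insulin, GW4064 minus DMSO, shFOXA2 minus shlacZ), with 95% confidence intervals from the fit of all 24 arrays. Filled points passed an adjusted p of 0.05. The hormone panel spans -1.73 for Klf5 to 2.11 for Klf15, and in the other panels every point lies between -0.23 and 0.16 and none is filled.

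Of the activators, Klf5 read 5.06, 5.74 and 5.43 on the 3 shlacZ DMSO glucagon arrays (experiments 1, 2 and 3), against 7.30, 7.74 and 6.70 on the insulin arrays. Over all arrays its lowest, median and highest values were 5.06, 5.37 and 6.01 under glucagon, and 6.23, 7.29 and 8.0 under insulin. The hormones did not overlap: all 12 glucagon arrays lay below all 12 insulin arrays, with a gap of 0.22. The averaged difference was -1.73 on the log2 scale (SE 0.19, adjusted p = 1.23e-06), and pairs matched by experiment, hairpin and drug gave -2.25 to -0.92.

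Klf6 read 9.42, 9.35 and 9.66 under glucagon in shlacZ DMSO cells, against 10.69, 10.64 and 10.61 under insulin. Its 12 glucagon arrays ran from 9.19 to 9.69 with a median of 9.45, and its 12 insulin arrays from 10.54 to 10.86 with a median of 10.66. Every glucagon array was lower than every insulin array, with a gap of 0.85, the widest of any member. The averaged log2 difference of -1.23 (SE 0.059, adjusted p = 6.55e-12) had the smallest p among the members, and the 12 pairs lay between -1.47 and -0.86.

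Klf4 and Klf2 did not follow these activators. Klf4 ran from 5.32 to 6.80 under glucagon (median 5.57) and from 5.14 to 6.87 under insulin (median 5.61), with 4 of 12 pairs higher and 8 lower. Its averaged difference was -0.03 (95% interval -0.48 to 0.43, adjusted p = 0.968). Klf2, near the floor with a mean of 3.16, ran from 2.84 to 3.39 under glucagon and from 2.90 to 3.49 under insulin, with a difference of 0.01 (SE 0.065, adjusted p = 0.963). The groups overlap fully in both genes, and a change in Klf2 near the floor would be hard to see.

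Klf3, the CtBP-binding repressor, read 8.92, 8.76 and 8.67 under glucagon in shlacZ DMSO cells, against 8.50, 8.40 and 8.56 under insulin. Over all arrays the lowest, median and highest were 8.59, 8.76 and 8.94 under glucagon, and 8.28, 8.51 and 8.63 under insulin. The groups touch, since the lowest glucagon array is below the highest insulin array. All 12 matched pairs were nevertheless higher under glucagon, by 0.07 to 0.42, and the averaged difference was 0.28 (SE 0.058, adjusted p = 0.00153). Its call was lost without experiment 2 (0.27, adjusted p = 0.0825).

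Of the Sin3-binding members, Klf10 changed most. It read 4.35, 5.38 and 5.69 under glucagon in shlacZ DMSO cells, against 7.0, 6.80 and 6.59 under insulin. Its lowest, median and highest values over all arrays were 4.35, 5.37 and 5.87 under glucagon, and 6.59, 6.92 and 7.33 under insulin. The hormones were again fully apart, by 0.72, with an averaged difference of -1.64 (SE 0.15, adjusted p = 6.55e-08). The difference was unequal between experiments, at -2.36, -1.44 and -1.13 in experiments 1, 2 and 3.

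Klf16 went the same way as Klf10 but less evenly. It read 5.26, 4.96 and 5.57 under glucagon in shlacZ DMSO cells, against 6.28, 5.90 and 5.60 under insulin, and over all arrays it had medians of 5.44 under glucagon and 5.95 under insulin. The groups overlap, 10 of 12 pairs were lower and 2 higher, and the averaged difference was -0.54 (SE 0.14, adjusted p = 0.00883). By experiment the differences were -0.68, -1.02 and 0.07, so experiment 3 did not show the drop. Without experiment 3 it was -0.85 (adjusted p = 0.000183), without experiment 1 it was -0.48 (adjusted p = 0.173), and without experiment 2 it was -0.31 (adjusted p = 0.383).

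Klf11, the nearest relative of Klf10, moved the other way from it. It read 5.01, 5.22 and 4.93 under glucagon in shlacZ DMSO cells, against 4.85, 4.76 and 4.67 under insulin, and 11 of 12 pairs were higher under glucagon. The averaged difference was 0.26 (SE 0.06, adjusted p = 0.00432), with an adjusted p of 0.11 without experiment 1 and 0.0548 without experiment 3. Klf13 had medians of 5.36 under glucagon and 5.33 under insulin, with 7 pairs higher and 5 lower and a difference of 0.12 (95% interval -0.08 to 0.33, adjusted p = 0.52). Its differences by experiment were 0.32, 0.10 and -0.05, and without experiment 3 it was 0.21 with an adjusted p of 0.0452.

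Klf15, the fasting-induced member, read 6.72, 6.06 and 6.24 under glucagon in shlacZ DMSO cells, against 3.83, 4.10 and 4.83 under insulin. Its lowest, median and highest values over all arrays were 5.46, 6.34 and 6.80 under glucagon, and 3.29, 3.99 and 4.95 under insulin. All 12 glucagon arrays lay above all 12 insulin arrays, with a gap of 0.52, and its lowest insulin array was close to the arrays' medians. The averaged difference was 2.11 (SE 0.2, 95% interval 1.68 to 2.54, adjusted p = 1.93e-07), the largest among the members. By experiment it was 2.88, 1.97 and 1.48, and single pairs ran from 0.70 to 3.50. Its insulin means in experiments 1 and 2, at 3.77 and 3.83, were under 4. The part of the floor in these sizes was not tested.

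Counted over arrays, 4 members had no overlap between the hormones, Klf15 higher and Klf5, Klf6 and Klf10 lower, where 3.07% of all genes tested had none (1.11% higher and 1.96% lower). In 5 members, the same 4 and Klf3, all 12 pairs had the same sign, where 10.3% of all genes did (4.58% higher and 5.75% lower). Given how the members were chosen, both counts are a description. Klf5, Klf6, Klf10 and Klf15 kept their call when any 1 array was left out of the averaged comparison, and when any 1 experiment was left out. The range over the 38 alternatives was -1.98 to -1.60 for Klf5, -1.32 to -1.18 for Klf6, -1.90 to -1.28 for Klf10 and 1.72 to 2.42 for Klf15.

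**Figure D3:**
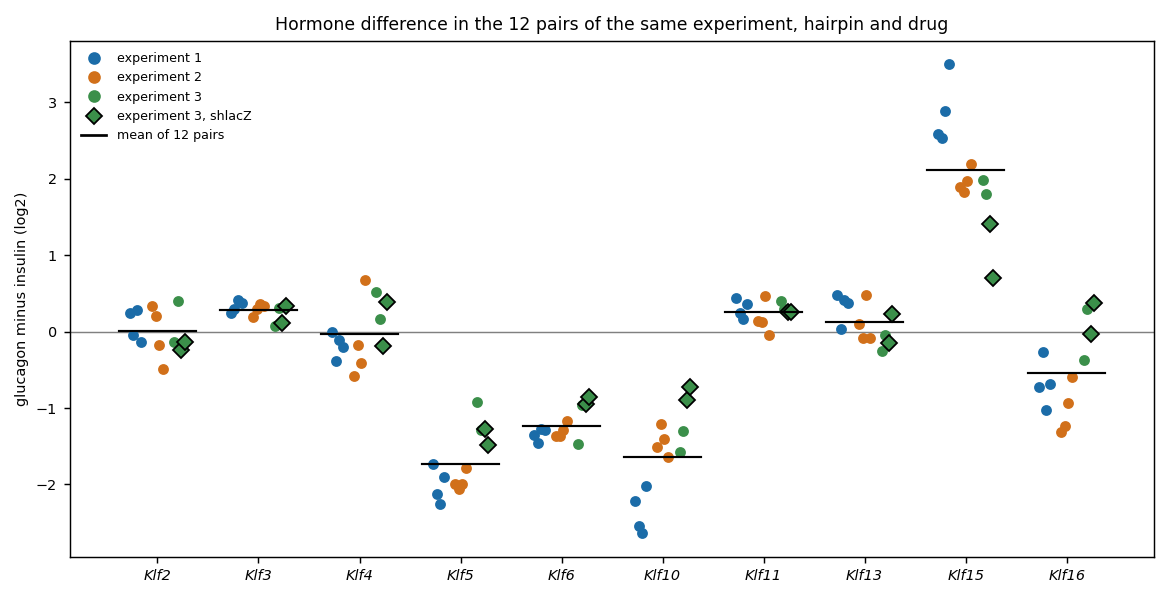
Glucagon minus insulin on the log2 scale for the 12 pairs of arrays matched by experiment, hairpin and drug, 1 column of points per member, with a line at the mean. Diamonds are the shlacZ pairs of experiment 3. All points of Klf5, Klf6 and Klf10 lie below 0 and all points of Klf3 and Klf15 above it, and in Klf6, Klf10 and Klf15 the diamonds include the point nearest to 0.

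Taken singly, each of the 4 combinations of hairpin and drug called the same 4 members, Klf5, Klf6, Klf10 and Klf15, with 3 arrays per hormone. The shares of all genes called were 4.68% in shlacZ DMSO, 4.79% in shFOXA2 DMSO, 3.09% in shlacZ GW4064 and 3.49% in shFOXA2 GW4064. In shFOXA2 DMSO cells Klf15 averaged 6.23 ± 0.4 under glucagon and 4.07 ± 0.33 under insulin (SD, n = 3 each), a difference of 2.16 (limma, adjusted p = 0.00271). In shlacZ DMSO cells it averaged 6.34 ± 0.34 under glucagon and 4.25 ± 0.52 under insulin, a difference of 2.09 (limma, adjusted p = 0.00372). The 2 differences under GW4064 were 2.06 with shFOXA2 and 2.14 with shlacZ, so the 4 values of Klf15 lay between 2.06 and 2.16.

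Klf5 differed by -1.55 in shFOXA2 DMSO, -1.84 in shlacZ DMSO, -1.83 in shFOXA2 GW4064 and -1.72 in shlacZ GW4064 cells, with adjusted p from 0.00663 to 0.0219 by limma. Klf10 differed by -1.77, -1.65, -1.69 and -1.46 in the same order, and Klf6 by -1.39, -1.17, -1.26 and -1.11. In shFOXA2 DMSO the SD of Klf5 between arrays was 0.35 under glucagon and 0.89 under insulin, and its single-condition calls were the least steady. In shFOXA2 DMSO its call was lost without either of the arrays of experiment 1 (adjusted p = 0.0665 and 0.0812), the insulin array of experiment 2 (difference -1.13, adjusted p = 0.147) or the glucagon array of experiment 3 (0.0997). In shlacZ GW4064 it was lost without the glucagon array of experiment 1 (0.0682) or 3 (0.0577) or the insulin array of experiment 2 (0.0907), and in shFOXA2 GW4064 without the insulin array of experiment 2 (0.0642). The Klf10 call in shlacZ GW4064 was lost without the glucagon array of experiment 1 (difference -1.26, adjusted p = 0.0525).

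With a whole experiment left out, 2 arrays remained in each group, and the calls depended on whether the fit paired arrays by experiment. Klf6 was called in all 4 conditions under every alternative. Without the pairing, Klf15 was called in none of the 4 without experiment 1 (adjusted p 0.0777 to 0.323) or without experiment 2 (0.0547 to 0.099). Klf5 was called in none without experiment 1 (0.282 to 0.399), nor in shFOXA2 DMSO without experiment 2 (0.103), and Klf10 in none without experiment 2 (0.0537 to 0.24). With experiment number as a block, Klf5 and Klf15 were called in all 4 conditions without any 1 experiment, with adjusted p of at most 0.0104 for Klf5 and 0.0276 for Klf15. Klf10 was then lost only in shlacZ GW4064 without experiment 2 (-1.37, adjusted p = 0.0774). With all 3 experiments and the block, 5 members were called in each condition, where the shares of all genes were 11.2% in shlacZ DMSO, 11.3% in shFOXA2 DMSO, 8.41% in shlacZ GW4064 and 9.14% in shFOXA2 GW4064. The added member was Klf3 in shlacZ DMSO (0.30, adjusted p = 0.0196), shlacZ GW4064 (0.35, 0.00827) and shFOXA2 GW4064 (0.30, 0.0221), and Klf16 in shFOXA2 DMSO (-0.80, 0.0403). Without the block these had adjusted p of 0.184, 0.133, 0.221 and 0.128.

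The hormone difference was then compared between drugs and between hairpins. No member passed the test for a hormone-by-hairpin or a hormone-by-drug interaction, nor did any of the 22180 genes (0% called in each by limma, with and without the block, and 921 and 584 genes at an unadjusted p under 0.05 without it). At an unadjusted p under 0.05, the hormone-by-hairpin fit held 1 member, Klf2, which is near the floor (0.32, 95% interval 0.05 to 0.59, adjusted p = 1), and the hormone-by-drug fit held 0 members. For the members with the largest hormone differences, the difference with shFOXA2 minus that with shlacZ was -0.01 for Klf15 (95% interval -0.86 to 0.85), 0.09 for Klf5 (-0.71 to 0.90), -0.17 for Klf10 (-0.79 to 0.44) and -0.19 for Klf6 (-0.43 to 0.06). The difference under GW4064 minus that under DMSO was -0.03 for Klf15 (-0.88 to 0.83), -0.08 for Klf5 (-0.89 to 0.72), 0.13 for Klf10 (-0.48 to 0.75), 0.10 for Klf6 (-0.15 to 0.35) and 0.38 for Klf16 (-0.20 to 0.97). Without the 2 shlacZ glucagon arrays of experiment 3, which stood apart as described below, the hairpin value of Klf10 changed sign to 0.09, and those of Klf15, Klf5 and Klf6 were -0.15, 0.04 and -0.10. The drug values were then 0.07 for Klf15, -0.02 for Klf5, 0.14 for Klf10, 0.10 for Klf6 and 0.42 for Klf16, and no member passed in either. The intervals over all arrays come from the fit without the block, which counts shifts between experiments as error. They leave room for changes of the hormone difference by up to 1.13 on the log2 scale over the members, so equal responses were not shown.

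GW4064 against DMSO asks how the family differed with this FXR agonist. Targets of FXR were not read here, so whether the drug activated FXR in these cells was not tested. No member passed, where 0.00902% of all genes were called by limma, and none with the block, where 0.0135% were. At an unadjusted p under 0.05, where 766 of the 22180 genes lay (1326 with the block), there was 1 member in each fit, Klf13, with -0.23 (SE 0.099, 95% interval -0.44 to -0.03, adjusted p = 1, and 0.572 with the block). Klf13 was lower in 10 of 12 GW4064 pairs, with differences from -0.70 to 0.29, and the experiments gave -0.36, -0.31 and -0.03. In shlacZ cells it averaged 5.18 ± 0.2 with GW4064 and 5.57 ± 0.43 with DMSO under glucagon, and 5.01 ± 0.19 with GW4064 and 5.32 ± 0.11 with DMSO under insulin (SD, n = 3 each). Klf15 differed by -0.12, Klf11 by 0.10, Klf10 by 0.08 and Klf6 by 0.00, and over all members the 95% intervals ran from -0.55 to 0.51. Within insulin arrays and within glucagon arrays no member passed either, with 0% of genes called in each. At an unadjusted p under 0.05 there were 0 members in either without the block, and with it 0 under insulin and 1 under glucagon, Klf13. The drug-by-hairpin interaction called no member and 0% of genes, with 95% intervals from -1.04 to 1.11 and 0 members and 705 genes at an unadjusted p under 0.05 without the block.

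The hairpin against FOXA2, a pioneer factor that opens liver enhancers, was compared with shlacZ in the same way. Foxa2 itself differed by a mean of -0.43, and by -0.12 in experiment 3, so a stronger loss of FOXA2 was not tested. No member passed by limma, where 0.00902% of all genes were called, and none passed with the block, where 0.0766% were. At an unadjusted p under 0.05 there were 0 members and 1376 genes without the block, and 1 member, Klf13, and 2466 genes with it. Klf13 was nearest, at 0.16 (adjusted p = 0.845, and 0.398 with the block), higher in 10 of 12 shFOXA2 pairs. Klf4 differed by 0.12, Klf16 by 0.11, Klf10 by 0.10, Klf5 by 0.05, Klf6 by -0.01, Klf3 by -0.02 and Klf15 by -0.02, and the intervals over all members ran from -0.45 to 0.58. No member passed under insulin alone (0.00451% of genes called) or glucagon alone (0%). At an unadjusted p under 0.05 there were 0 members in either without the block, and with it 1 under insulin, Klf13, and 0 under glucagon. No member had groups free of overlap in either the drug or the hairpin comparison, where 0% of all genes had.

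The members differed in how far their level depended on the experiment. Klf4 averaged 5.59, 6.43 and 5.40 over the 8 arrays of experiments 1, 2 and 3, and its experiment 2 arrays (6.01 to 6.87) all lay above the other 16 (5.14 to 5.99). Its group SDs of 0.38 to 0.86 therefore hold this shift, whereas those of Klf6 were 0.043 to 0.2. Klf5 averaged 5.28, 5.82 and 5.29 under glucagon in experiments 1, 2 and 3, against 7.28, 7.78 and 6.53 under insulin. Klf15 averaged 6.65, 5.80 and 6.20 under glucagon, against 3.77, 3.83 and 4.72 under insulin, highest in experiment 3. Markers of other cells moved with experiment as well: the 10 endothelial genes averaged 4.80, 4.00 and 4.15, highest in experiment 1, with Cdh5 at 7.85, 6.41 and 6.56 and Nos3 near the floor at 2.83. Between hormones the endothelial list ran from 3.97 to 4.84 under glucagon and from 3.91 to 4.88 under insulin. Of its 10 genes 0 passed in the fit without the block, which counts this shift between experiments as error. Klf2, known from endothelium, stayed near the floor in every experiment (means 3.21, 3.13 and 3.13), and the part of these cells in the level of Klf4 was not tested.

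The shlacZ arrays of experiment 3 stood apart in a list of 11 NF-kB response genes such as Cxcl1 and Csf1. The list averaged 7.53 (DMSO) and 7.73 (GW4064) on the 2 shlacZ glucagon arrays of experiment 3, against 6.21 to 6.83 on the other 10 glucagon arrays. Their insulin partners were low, at 7.36 and 7.11, against 7.54 to 8.41 on the other 10, so the list's hormone difference was 0.18 and 0.63 in these pairs and -2.06 to -0.71 in the rest. In these pairs (DMSO, then GW4064) Klf10 differed by -0.90 and -0.72, against -2.64 to -1.21 elsewhere, and Klf15 by 1.41 and 0.70, against 1.80 to 3.50. Klf6 differed by -0.95 and -0.86, against -1.47 to -0.96, while Klf5, at -1.27 and -1.48, lay inside the range of the other pairs (-2.25 to -0.92). The hormone difference of Klf6, Klf10 and Klf15 was the smallest in these pairs, where the NF-kB list did not fall, and kept its sign there. Klf16 showed -0.03 and 0.37 in them, against -1.31 to 0.30 elsewhere. Klf5 had its smallest difference, -0.92, in the shFOXA2 DMSO pair of experiment 3, where the list fell most (-2.06). Both shlacZ pairs share experiment and hairpin, so a part of the NF-kB genes cannot be told apart from these and was not tested.

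Without the 2 shlacZ glucagon arrays of experiment 3, the averaged comparison called 7 members again. Klf15 differed by 2.18 (adjusted p = 9.91e-07), Klf10 by -1.78 (2.94e-08), Klf6 by -1.28 (4.18e-11), Klf5 by -1.71 (1.2e-05) and Klf16 by -0.60 (0.00918). Klf3 differed by 0.31 (0.000937) and Klf11 by 0.28 (0.00461). In shlacZ GW4064 cells the call of Klf5 was lost (-1.60, adjusted p = 0.0694).

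**Figure D4:**
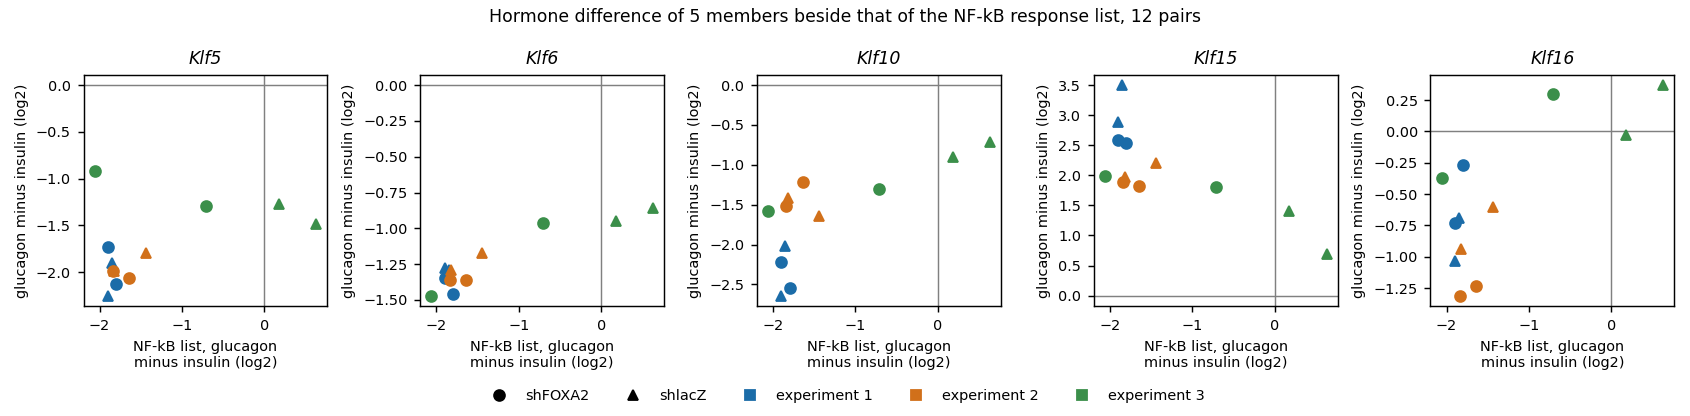
Glucagon minus insulin of Klf5, Klf6, Klf10, Klf15 and Klf16 (vertical axes, log2) against that of the mean of 11 NF-kB response genes (horizontal axis, log2), 1 point per matched pair of arrays, 12 pairs. The 2 shlacZ pairs of experiment 3 sit at 0.18 and 0.63 on the horizontal axis and the other 10 at -2.06 to -0.71, and Klf15 stays above 0 and Klf5, Klf6 and Klf10 below 0 in all 12.

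How alike the members ran was described by Pearson's r over the 24 arrays after each experiment's mean was removed. All values share the same arrays and the same hormone difference, so they are given as a description. Klf5 ran with Klf6 at 0.97 and with Klf10 at 0.95, and Klf6 with Klf10 at 0.95. Klf15 ran against Klf10 at -0.98, Klf6 at -0.96 and Klf5 at -0.94, and with Klf3 at 0.87, and Klf16 ran with Klf5 at 0.78. Over the genes with a mean of at least 5, those most like each member were Map2k3os (0.987), Nepro (0.982) and Rrad (0.982) for Klf5, Plaur (0.991), Ccn2 (0.990) and Il17ra (0.988) for Klf6, and Ankrd1 (0.980), Phlda1 (0.977) and Plk2 (0.977) for Klf10. For Klf15 they were Slc25a51 (0.976), Mtus1 (0.972) and Zbtb16 (0.970), for Klf3 Sall1 (0.931), Wipi1 (0.913) and Stk10 (0.909), and for Klf16 Noct (0.908), Zfp36l1 (0.891) and Nfkb2 (0.890). The likeness was looser for Klf11 (Ggcx, 0.799), Klf13 (Dnajc18, 0.799), Klf4 (Dph6, 0.755) and Klf2 (Snord82, 0.703).

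Of the 7 other KLF genes measured, 0 rose and 1 fell between glucagon and insulin, against 3 and 4 of the 10 members. Of all genes tested 16.2% were called, and 34.4% of those with a mean of at least 4. Klf7, an activator known from neurons and fat cells, fell (-0.35, SE 0.081, adjusted p = 0.00345). Klf9, a glucocorticoid-induced repressor, had -0.21 (adjusted p = 0.268, and 0.0138 with the block) and Klf12 had 0.16 (0.181). Klf1, Klf8, Klf14 and Klf17 were near the floor, with differences of 0.02, -0.06, -0.07 and 0.05. Of the 8 SP factors measured, which bind the same GC boxes, 0 rose and 2 fell, Sp3 at -0.26 (adjusted p = 0.00329) and Sp8, near the floor, at -0.22 (0.00293). Sp1 had -0.20 (0.0772, and 0.0338 with the block). The choice of the 10 members was made with earlier results of these data known, so this contrast within the family is a description. Near the floor were Klf1, Klf8, Klf14 and Klf17, but of the members only Klf2. The part of signal level in the contrast was not tested.

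Partners of the members were read from lists, whose counts stand beside 16.2% of all genes called in this comparison and 34.4% of those with a mean of at least 4. The shares of the first 4 lists, at 2 of 11, 4 of 8, 2 of 8 and 6 of 12, were not tested against these. Of 11 corepressors and coactivators measured, 1 rose and 1 fell. Sin3a, the corepressor bound by Klf10, Klf11, Klf13 and Klf16, was higher under glucagon (0.79, SE 0.083, adjusted p = 5.92e-07). Fhl3, a LIM protein known to bind Klf3, was lower (-1.08, SE 0.13, adjusted p = 1.9e-06). Of 8 ubiquitin ligases that act on KLF proteins, 1 rose (Fbxw7, 0.33) and 3 fell (Smurf1 -0.42, Siah1a -0.41 and Siah1b -0.29, the last near the floor). A list of 8 genes covers the MEF2 and ERK5 route that induces Klf2 and Klf4 in endothelium, with regulators of it. In it 1 rose (Hdac5, 0.66) and 1 fell (Hdac7, -0.30, near the floor), both deacetylases that repress MEF2 and not inducers. Of 12 TGF-beta pathway genes, the route that induces Klf10 and Klf11, 3 rose and 3 fell, with a median of -0.01. The receptor Tgfbr1 rose by 1.15, and the inhibitor Smad7, the corepressor Tgif1 and the ligand Tgfb2 fell, at -1.01, -0.82 and -0.70.

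Enzymes linked to Klf15 in mouse liver were set beside it. The counts here also stand beside 16.2% of all genes called and 34.4% of those with a mean of at least 4, without a test. Among the 12 on the array 9 rose and 0 fell, with a median of 1.42, and 3 missed the threshold. Pck1 and G6pc, enzymes of gluconeogenesis, rose by 6.04 and 5.16, and Aass and Tat, which degrade lysine and tyrosine, by 3.17 and 2.99. Gpt, the alanine transaminase, had 0.43 (adjusted p = 0.221), Prodh, the proline dehydrogenase, 0.02, and Bcat2, the branched-chain transaminase and near the floor, -0.01. Of 9 genes induced by glucocorticoids, which were present in every group, 4 rose and 1 fell with a median of 0.10: Tat, Zbtb16 (1.61), Sgk1 (1.16) and Tsc22d3 (0.61) rose, and Fkbp5 fell (-0.34).

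Lists that Klf6, Klf10 and the other lowered members could run with were read as well. Their counts stand beside the same 16.2% of all genes called and 34.4% of those with a mean of at least 4. They were not tested against these shares. Of 13 immediate-early factors, 0 rose and 9 fell, with a median of -0.60, led by Egr1 (-3.24), Ier2 (-1.97), Ier3 (-1.93) and Atf3 (-1.81). Of the 11 NF-kB response genes 0 rose and 10 fell, with a median of -1.53, led by Csf1 (-2.55), Il23a (-2.54), Cxcl1 (-1.98) and Cxcl2 (-1.71). Of 14 clock genes 4 rose and 2 fell, with Cry2 at 1.28, Nr1d1 at -0.77, Nr1d2 at 0.47 and Arntl at 0.29. In the marker lists, 4 of 8 hepatocyte genes rose, 1 of 8 stellate genes rose (Dcn, 0.35), 1 of 5 cholangiocyte genes fell (Sox9, -1.20), and 0 of 9 macrophage, 0 of 10 endothelial and 0 of 7 lymphocyte genes passed. In the averaged drug and hairpin comparisons no gene of any of these lists passed, with or without the block.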

How the data were processed

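The authors deposited one normalized log2 signal per probe set and array, for 41345 probe sets on 24 arrays, with no missing value. Per the labels' protocols, 300 ng of RNA was hybridised to Affymetrix MoGene 2.0 ST arrays and data were handled in GeneSpring. The normalization method is not given in the sources used here. Symbols came from the platform annotation: 23521 probe sets had 1 gene, 1814 several and 16010 none. The probe set of highest mean was kept, which left 22180 genes. Each member had 1 probe set of its own. The number of arrays limits the precision: the median SE was 0.063 for averaged comparisons and 0.13 for single conditions.

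A mean per group was fitted to all 24 arrays with limma 3.58.1 in R 4.3.3 (16 residual degrees of freedom), with p adjusted over all genes. Intervals are unadjusted 95% intervals. The members and lists were chosen with earlier results of these data known. All members are named in every comparison. Of other lists, up to 4 genes of the largest difference that passed are named, and all other KLF genes. Sp1, Gpt, Prodh, Bcat2, Fkbp5, Cd68, Cdh5 and Nos3 were named after their values were seen. The 3 genes of highest r are named per member, or 1 for the looser ones.

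The labels number 3 experiments, each a pool of hepatocytes, so the numbers pair arrays across groups. Deviations from group means correlated at 0.374 to 0.698 (median 0.474) over 84 same-experiment pairs, and 24 of 24 arrays matched their own experiment best. No replicates were alike beyond 4 identical values. On simulated data with the 22180 genes, the averaged hormone comparison recovered 87.9% of genes changed by 0.5 and 98.5% of those changed by 1 on the log2 scale. The single condition shlacZ DMSO recovered 42.4% and 91% of them. The simulated noise was independent between arrays, with no shift between experiments, and far fewer genes were changed than were called in the data. Alternatives were the experiment as a block, median centring, quantile normalization, a mean of at least 4, other probe set rules, a trended robust fit, and each array or experiment left out. The last of these with a block, and the fit without 2 arrays that stood apart, were chosen after seeing the data.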

Additional observations from a re-analysis of the deposited data

How the results depend on the processing

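The averaged hormone comparison called 7 members, and 5 to 7 when an experiment was left out. Each single condition called 4 members. With an experiment left out, these counts ran from 2 to 5 in shlacZ DMSO, 1 to 5 in shFOXA2 DMSO, 2 to 4 in shlacZ GW4064 and 2 to 4 in shFOXA2 GW4064, where fewer arrays were fitted. Without the shlacZ GW4064 glucagon array of experiment 1 the count in that condition was 2. With the replicate block, which pairs arrays by experiment, 7 members were called in the averaged comparison and 5 in each condition. With the block and without experiment 3, shlacZ DMSO called 7, the cause of which was not tested. No call changed direction under any of the 38 alternatives, of which 24 left out 1 array. Other probe set rules and the filter on the mean could not change a member's direction, since each member had 1 probe set. Among the members' own results, 35 calls were lost and 16 were gained over all alternatives and comparisons, all of them in the hormone comparisons. The drug, hairpin and interaction comparisons called 0 members under every alternative. The number of arrays set a limit, as did signal close to the floor for Klf2 and for Klf15 under insulin in experiments 1 and 2.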
